A study of Drosophila melanogaster with 12 samples.

Results

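The 7 rhodopsin genes of the fly were followed in heads of ADAR hypomorph and WT flies grown at 29°C or 18°C. They were taken from the count table by their symbols (ninaE, Rh2, Rh3, Rh4, Rh5, Rh6 and Rh7) and are 7 of its 15423 genes. All 7 had enough reads to be tested, among 9553 tested genes. 4 of them lie on chromosome arm 3R (ninaE, Rh2, Rh3 and Rh6), Rh4 and Rh7 on 3L and Rh5 on 2L.

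Rhodopsins are the light receptors of photoreceptor cells: an opsin protein bound to a vitamin A-derived chromophore, which after absorbing light activates a Gq protein, phospholipase C and the TRP channels. In the compound eye, each unit (ommatidium) has a ring of outer photoreceptors that express ninaE, which encodes the opsin Rh1, and inner photoreceptors R7 and R8, each of which usually expresses a single opsin. In most R7 cells this is Rh3 or Rh4, and in most R8 cells Rh5 or Rh6, so that "pale" ommatidia pair Rh3 with Rh5 and "yellow" ommatidia pair Rh4 with Rh6. Rh2 is the opsin of the ocelli, the simple eyes on top of the head, and Rh7 is a divergent opsin reported in clock neurons of the brain.

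The groups were ADAR hypomorph flies at 29°C, WT flies at 29°C, ADAR hypomorph flies at 18°C and WT flies at 18°C, with 3 libraries of heads in each, collected 3 to 6 days after eclosion. The hypomorph is described in the study as carrying a transposon insertion in an intron of Adar, the RNA editing enzyme, while the WT stock of this experiment is named no further. The allele itself is uncertain, since the allele name given for the hypomorph in the methods is elsewhere in the study used for a different mutant. The sex of the flies, and whether the libraries of a group came from separate collections of flies, are not given in the sources used here, so the p-values measure only the spread between these samples. Each library sampled the 3' ends of mRNAs, and a level is given in CPM, the counts of a gene scaled to a common library size after TMM normalisation.

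Total counts ranged from 4409119 to 8806472 per library. Adar itself averaged 23.2 ± 1.48 CPM in hypomorph and 39.7 ± 2.51 CPM in WT heads at 29°C, and 29.4 ± 7.68 CPM in hypomorph and 38.8 ± 3.08 CPM in WT heads at 18°C (SD, n = 3 each), where the libraries overlapped at 18°C. It was lower in the hypomorph at both temperatures (log2 fold changes of -0.77 at 29°C and -0.41 at 18°C, with adjusted p of 0.000859 and 0.0424 by edgeR's quasi-likelihood test). The strains also differed in the eye pigment transporter gene w (white), at 29.7 to 34.8 CPM in the hypomorph and 2.47 to 2.89 CPM in WT at 29°C, and at 30.3 to 35.3 CPM and 1.54 to 3.10 CPM at 18°C. The Adar allele and any other genetic difference between the stocks cannot be told apart in this design.

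The first question was whether the rhodopsin mRNAs differed between the strains. The opsins of the compound eye were all more abundant in the hypomorph, ninaE most of all, at 5.91-fold the WT level at 29°C and 6.06-fold at 18°C. Rh4 and Rh5 were more than 2-fold higher, and Rh3 and Rh6 were higher by smaller factors. The ocellar Rh2 and the sparse Rh7 did not share this rise. At 29°C, 5 of the 7 genes were higher in the hypomorph and 1 was lower at an adjusted p under 0.05 (edgeR, Benjamini-Hochberg), where 8.81% of all tested genes were higher and 10.2% lower. At 18°C, 5 were higher and none lower, where 11.6% of all tested genes were higher and 14.6% lower.

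**Figure D1:**
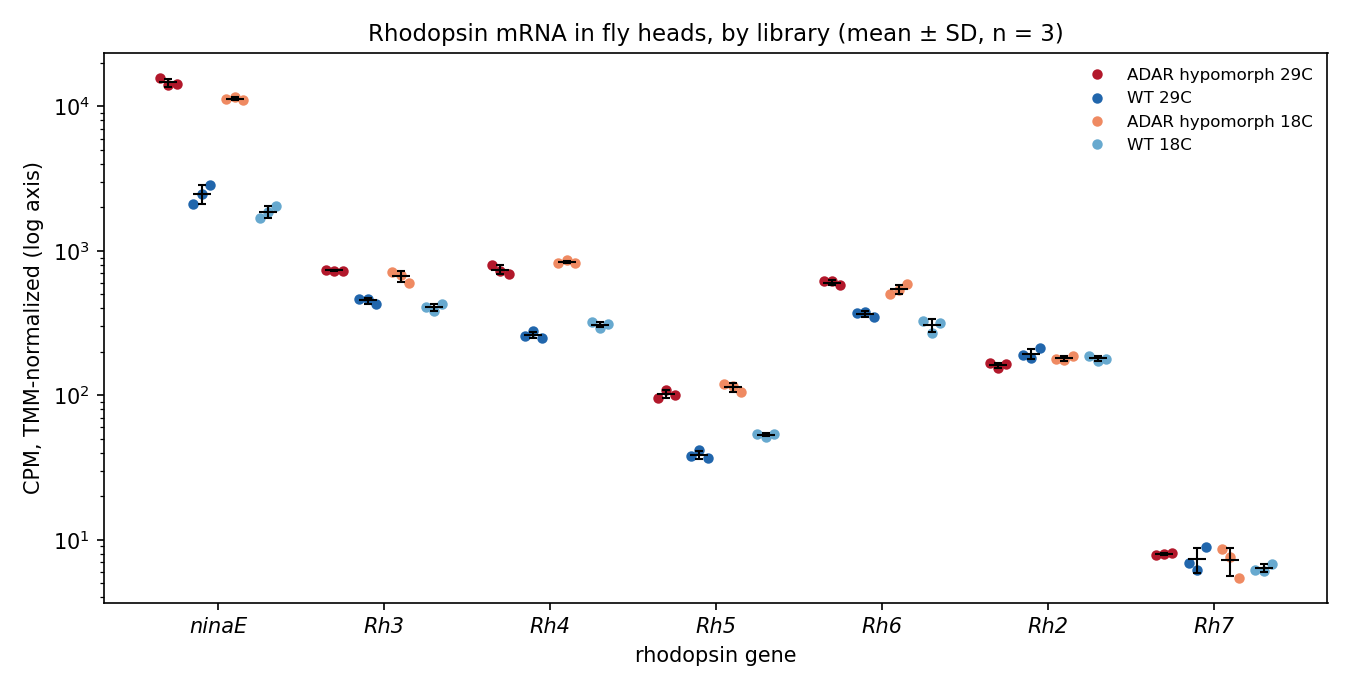
Level of each rhodopsin gene in each library (points, CPM on a log axis) with the mean and SD of the 3 libraries of a group (black). The ADAR hypomorph libraries lie above the WT libraries of the same temperature for ninaE, Rh3, Rh4, Rh5 and Rh6, while the groups come close or overlap for Rh2 and Rh7.

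ninaE, the Rh1 gene of the outer photoreceptors, had 15754, 14013 and 14220 CPM in the 3 hypomorph libraries at 29°C, against 2126, 2481 and 2840 CPM in the WT libraries. At 18°C it had 11224, 11590 and 11083 CPM in the hypomorph and 1689, 1867 and 2039 CPM in WT. The lowest hypomorph library was thus far above the highest WT library at each temperature. The log2 fold changes were 2.56 ± 0.09 at 29°C and 2.60 ± 0.09 at 18°C (SE), with adjusted p of 5.46e-11 and 5.13e-11. Among all tested genes ordered by fold change, ninaE came 45th of 9553 at 29°C and 49th at 18°C. Within a library it was among the 5 most abundant genes in every hypomorph library (rank 2 to 5) and stood at rank 93 to 123 in the WT libraries.

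Rh4, the opsin of yellow R7 cells, had 801, 731 and 693 CPM in the hypomorph libraries at 29°C and 257, 277 and 251 CPM in the WT libraries. At 18°C the values were 824, 859 and 829 CPM in the hypomorph and 321, 294 and 312 CPM in WT. The groups did not overlap, and the log2 fold changes were 1.502 ± 0.06 at 29°C and 1.44 ± 0.06 at 18°C, with adjusted p of 2.22e-10 and 5.37e-10. Rh4 shares its locus with sina, sinah and CG13029, which lie on the opposite strand in the BDGP6 annotation, and the sources used here do not say whether the counting used strand. The reads given to sina were few, at 16.5 ± 2.70 CPM in the hypomorph and 13.5 ± 1.24 CPM in WT at 29°C, and at 20.7 ± 1.68 and 14.2 ± 1.78 CPM at 18°C, and sinah and CG13029 had averages under 1 CPM in every group.

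Rh3, the opsin of pale R7 cells, had 743, 723 and 731 CPM in the hypomorph libraries at 29°C and 466, 467 and 429 CPM in the WT libraries. At 18°C it had 714, 680 and 602 CPM in the hypomorph and 407, 384 and 431 CPM in WT. Every hypomorph library was again above every WT library of its temperature, by a smaller factor than for Rh4 (log2 fold changes of 0.69 ± 0.07 at 29°C and 0.71 ± 0.07 at 18°C, with adjusted p of 2.24e-06 and 1.47e-06).

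Rh5, the opsin of pale R8 cells and the least abundant of the compound eye, had 96.3, 109 and 100.3 CPM in the hypomorph libraries at 29°C and 37.7, 41.8 and 36.9 CPM in the WT libraries. At 18°C it had 119.9, 116 and 105 CPM in the hypomorph and 54.0, 51.7 and 53.8 CPM in WT. The groups were separate at each temperature, with log2 fold changes of 1.39 ± 0.08 at 29°C and 1.10 ± 0.08 at 18°C (adjusted p of 5.28e-09 and 5.20e-08).

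Rh6, the opsin of yellow R8 cells, had 616, 616 and 577 CPM in the hypomorph libraries at 29°C and 373, 378 and 346 CPM in the WT libraries. At 18°C it had 506, 539.6 and 587 CPM in the hypomorph and 328, 269 and 317 CPM in WT. The groups did not overlap, and the log2 fold changes of 0.72 ± 0.08 and 0.84 ± 0.08 had adjusted p of 5.52e-06 and 9.43e-07. The calls of ninaE, Rh3, Rh4, Rh5 and Rh6 and their direction held in all of the 20 other settings tried at each temperature, which changed the test, the scaling, the filter or the libraries.

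Rh2, the opsin of the ocelli, had 166, 154 and 164 CPM in the hypomorph libraries at 29°C, against 190, 182 and 211 CPM in the WT libraries. All hypomorph libraries were below all WT libraries, and the gene fell to 0.831 of the WT level (log2 fold change of -0.27 ± 0.07, adjusted p = 0.00971). This call was lost in 5 of 20 other settings, among them those without hypomorph replicate 3 at 29°C (adjusted p = 0.0586), without the unnumbered WT library at 29°C (0.0654) and with scaling by total counts (0.0507). At 18°C Rh2 had 178, 175 and 187 CPM in the hypomorph and 188, 174 and 178 CPM in WT, so that the groups overlapped. The fold change there was 1.00, with an interval of 2 SE on each side from 0.911 to 1.10 (adjusted p = 0.997).

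Rh7 was the least abundant of the 7 genes, with 28 to 69 reads per library and rank 6698 to 7592 by CPM within a library. It averaged 7.92 ± 0.136 CPM in the hypomorph and 7.31 ± 1.44 CPM in WT at 29°C, and 7.22 ± 1.596 CPM in the hypomorph and 6.38 ± 0.372 CPM in WT at 18°C (SD, n = 3 each). The groups overlapped at both temperatures, with adjusted p of 0.725 and 0.496. The fold change was 1.09 at 29°C, with an interval of 2 SE from 0.841 to 1.42, and 1.16 at 18°C, from 0.875 to 1.53, so a change within these intervals is not excluded.

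In all, 6 of the 7 genes had groups that did not overlap at 29°C and 5 of 7 at 18°C, where 35.9% and 38.3% of all tested genes did not overlap. By the criterion given in the study's methods, read here as a log2 fold change beyond 1 with an unadjusted p under 0.05, ninaE, Rh4 and Rh5 passed at both temperatures, against 4.72% of all tested genes at 29°C and 5.51% at 18°C.

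**Figure D2:**
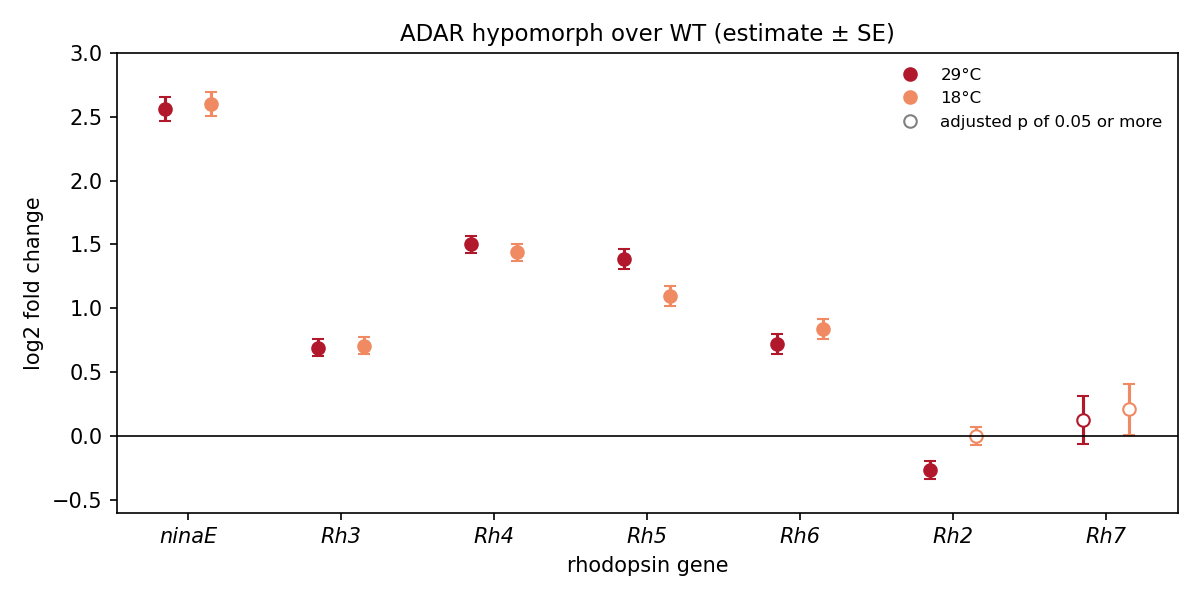
Log2 fold change of each rhodopsin gene, ADAR hypomorph over WT, at 29°C and 18°C (estimate and SE from edgeR's model), with open points where the adjusted p was 0.05 or more. ninaE stands highest at 2.56 and 2.60, the other opsins of the compound eye lie between 0.69 and 1.502, Rh7 lies within 0.21 of 0, and Rh2 lies at -0.27 at 29°C and 0.00 at 18°C.

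The next question was whether the balance among the rhodopsins differed, since a common change of all would leave it as it was. The shares did not overlap between the strains for ninaE, which took 86.2 ± 0.476% of the reads of the 7 genes in the hypomorph and 65.04 ± 3.69% in WT at 29°C, and 82.8 ± 0.160% in the hypomorph and 59.6 ± 2.76% in WT at 18°C (SD, n = 3 each). The 7 genes together made up 17011 ± 1019 CPM in the hypomorph and 3804 ± 334 CPM in WT at 29°C, and 13647 ± 292 CPM and 3125 ± 185 CPM at 18°C. The shares of Rh2 were 0.950 ± 0.0398% in the hypomorph and 5.12 ± 0.369% in WT at 29°C, and 1.32 ± 0.0720% and 5.77 ± 0.469% at 18°C.

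Ratios within a library do not depend on its scaling. 16 such ratios were compared by two-sided exact permutation tests, in which 3 libraries against 3 cannot give a p below 0.1, and the smallest value adjusted over the 16 comparisons was 0.114. None therefore passes a threshold of 0.05, and the values describe these libraries.

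Set against ninaE, the sum of the R7 opsins Rh3 and Rh4 was 2.88-fold lower in the hypomorph at 29°C (exact permutation p = 0.1), at 0.0980, 0.104 and 0.1002 of ninaE in the hypomorph libraries and 0.340, 0.300 and 0.240 in the WT libraries. At 18°C it was 2.90-fold lower (exact permutation p = 0.1). The sum of the R8 opsins Rh5 and Rh6 was 3.41-fold lower relative to ninaE at 29°C and 3.30-fold lower at 18°C (exact permutation p = 0.1 at each). In all 4 comparisons the strains did not overlap.

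The ratio of the pale to the yellow opsin lay on opposite sides in R7 and R8 at 29°C, lower in the hypomorph for R7 and higher for R8. The ratio of Rh3 to Rh4 was 0.927, 0.988 and 1.05 in the hypomorph libraries at 29°C, against 1.81, 1.68 and 1.70 in the WT libraries. At 18°C it was 0.867, 0.791 and 0.726 in the hypomorph and 1.27, 1.31 and 1.38 in WT. The pale opsin of R7 was thus lower relative to the yellow one in every hypomorph library, by 1.75-fold at 29°C and 1.66-fold at 18°C (exact permutation p = 0.1 at each). For the R8 opsins, the ratio of Rh5 to Rh6 was 0.157, 0.178 and 0.175 in the hypomorph libraries at 29°C, against 0.102, 0.112 and 0.108 in the WT libraries. Here the pale opsin was higher relative to the yellow one in the hypomorph, by 1.58-fold (exact permutation p = 0.1). At 18°C the ratio of Rh5 to Rh6 was 0.238, 0.216 and 0.179 in the hypomorph and 0.166, 0.194 and 0.171 in WT, and the groups overlapped (1.19-fold, exact permutation p = 0.2).

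**Figure D3:**
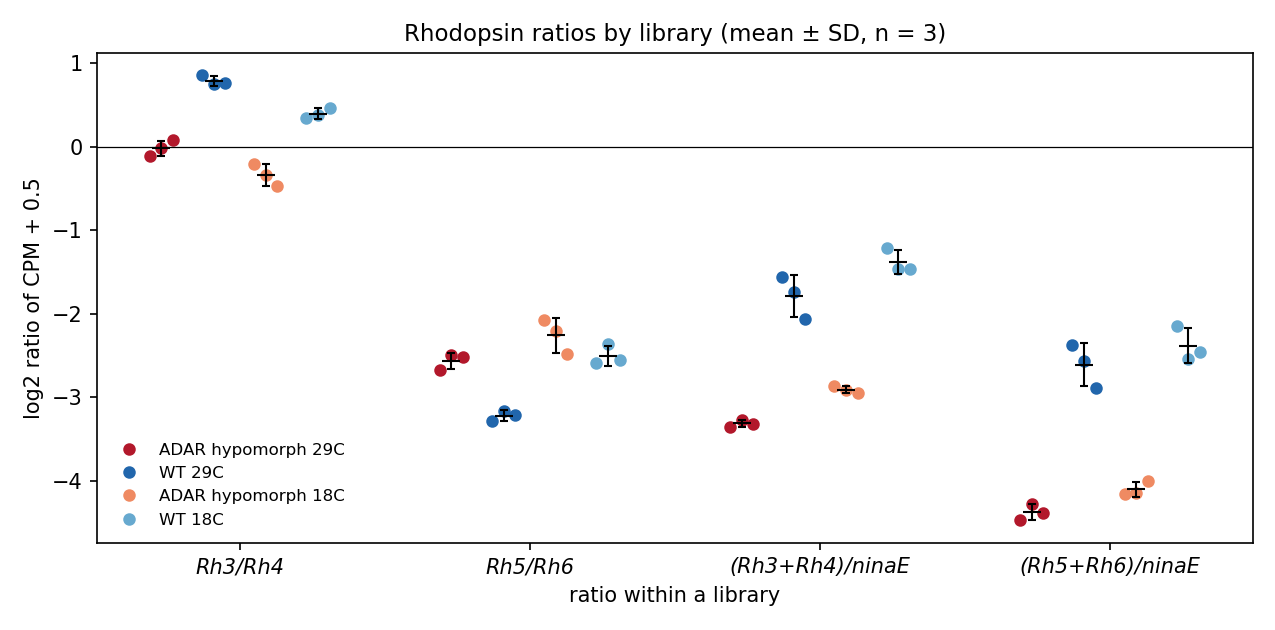
Ratios among rhodopsin genes in each library (points, log2 of CPM + 0.5) with the mean and SD of the 3 libraries of a group (black). Rh3 over Rh4 lies lower in the ADAR hypomorph than in WT at both temperatures, Rh5 over Rh6 lies higher at 29°C and overlaps at 18°C, and both inner photoreceptor sums lie lower relative to ninaE in the hypomorph.

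The order of the genes by level was compared per length, as CPM per kb of the longest annotated mRNA. Reads of a 3' library do not scale with transcript length, and the order by CPM was the same. ninaE was first in all 4 groups, at 9233 ± 599 in the hypomorph and 1563 ± 225 CPM per kb in WT at 29°C, and at 7115 ± 165 and 1174 ± 110 CPM per kb at 18°C. The gap to the next gene was 16.8-fold in the hypomorph and 4.79-fold in WT at 29°C, and 11.5-fold and 4.01-fold at 18°C. The next gene was Rh4 in the hypomorph and Rh3 in WT.

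Rh4 had 550.0 ± 40.5 and Rh3 527 ± 7.16 CPM per kb in the hypomorph at 29°C, where their libraries overlapped, and 621 ± 14.1 and 478 ± 41.5 CPM per kb at 18°C, where they did not. In WT, Rh3 with 326 ± 15.7 CPM per kb at 29°C was followed by Rh6 with 259.8 ± 12.003 and Rh4 with 194 ± 10.2, without overlap. At 18°C, Rh3 with 293 ± 16.8 CPM per kb was followed by Rh4 with 229 ± 10.3 and Rh6 with 216 ± 22.4, of which the last pair overlapped. Rh2, Rh5 and Rh7 closed the order in every group. Rh7 had 1.97 ± 0.0338 CPM per kb in the hypomorph and 1.82 ± 0.360 in WT at 29°C, and 1.80 ± 0.398 and 1.59 ± 0.0927 at 18°C.

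The second question was how the genes responded to temperature in each strain. The responses of ninaE, Rh3, Rh4, Rh5 and Rh6 were smaller than their strain differences at both temperatures, which was not so for Rh2 and Rh7. In the hypomorph, ninaE was higher and Rh4 lower at 29°C than at 18°C, and in WT ninaE and Rh6 were higher and Rh4 and Rh5 lower. Thus 1 gene was called higher and 1 lower in the hypomorph, where 15.6% of all tested genes were higher and 16.6% lower, and 2 were called higher and 2 lower in WT, where 16.1% were higher and 17.3% lower. None had a log2 fold change beyond 1 with an unadjusted p under 0.05, a mark that 6.16% of all tested genes passed in the hypomorph and 7.33% in WT.

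ninaE rose at 29°C in both strains, with log2 fold changes of 0.38 ± 0.09 in the hypomorph (adjusted p = 0.00426) and 0.41 ± 0.09 in WT (adjusted p = 0.00214). These are 1.30-fold and 1.33-fold, and the 29°C and 18°C libraries of a strain did not overlap. Scaling by total counts, which moves the median of all genes to -0.20 for this comparison in the hypomorph, left a log2 fold change of 0.19 there (adjusted p = 0.106).

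Rh4 moved the other way in both strains, with log2 fold changes of -0.17 ± 0.06 in the hypomorph (adjusted p = 0.0462) and -0.24 ± 0.06 in WT (adjusted p = 0.00971). The call in the hypomorph was lost in 14 of 20 other settings, including those that left out any of the 3 hypomorph libraries at 18°C, hypomorph replicate 3 at 29°C or the unnumbered hypomorph library at 29°C (adjusted p of up to 0.191), and 4 of those that left out a WT library. The call in WT was lost in 2 of 20, both restricted to the 8 numbered libraries.

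Rh5 was at 37.7, 41.8 and 36.9 CPM in WT at 29°C and at 54.0, 51.7 and 53.8 CPM at 18°C, a fall to 0.732 of the 18°C level (log2 fold change of -0.45 ± 0.08, adjusted p = 0.000511), and this call held in all of the 20 other settings. In the hypomorph its log2 fold change was -0.16 ± 0.08 and the temperatures overlapped (adjusted p = 0.120), with -0.34 by total counts (adjusted p = 0.00166). Rh6 was higher at 29°C in WT, at 1.20-fold (log2 fold change of 0.26 ± 0.08, adjusted p = 0.0150). The call of Rh6 was lost with total counts (adjusted p = 0.0600), without WT replicate 3 at 18°C (0.0796) and without WT replicate 3 at 29°C (0.0594). In the hypomorph Rh6 had a log2 fold change of 0.15 ± 0.08 (adjusted p = 0.153), with -0.04 by total counts.

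Rh3 had log2 fold changes of 0.14 ± 0.07 in the hypomorph and 0.16 ± 0.07 in WT (adjusted p of 0.131 and 0.0901), with -0.05 in the hypomorph by total counts. In WT, Rh3 was called in 3 of 20 other settings, with 0.24 in the 8 numbered libraries with the replicate block (adjusted p = 0.0157) and without it (0.0163), and 0.15 without the unnumbered hypomorph library at 18°C (0.0385). Rh2 had -0.16 ± 0.07 in the hypomorph and 0.11 ± 0.07 in WT (adjusted p of 0.0871 and 0.233), with -0.35 in the hypomorph by total counts (adjusted p = 0.00143). Rh7 had 0.11 ± 0.19 and 0.19 ± 0.20 (adjusted p of 0.699 and 0.49998). None of the 3 genes passed the test with TMM scaling of all 12 libraries. 4 of the 7 genes had libraries at 29°C and 18°C that did not overlap in each strain, where 45.3% of all tested genes did not overlap in the hypomorph and 44.9% in WT.

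**Figure D4:**
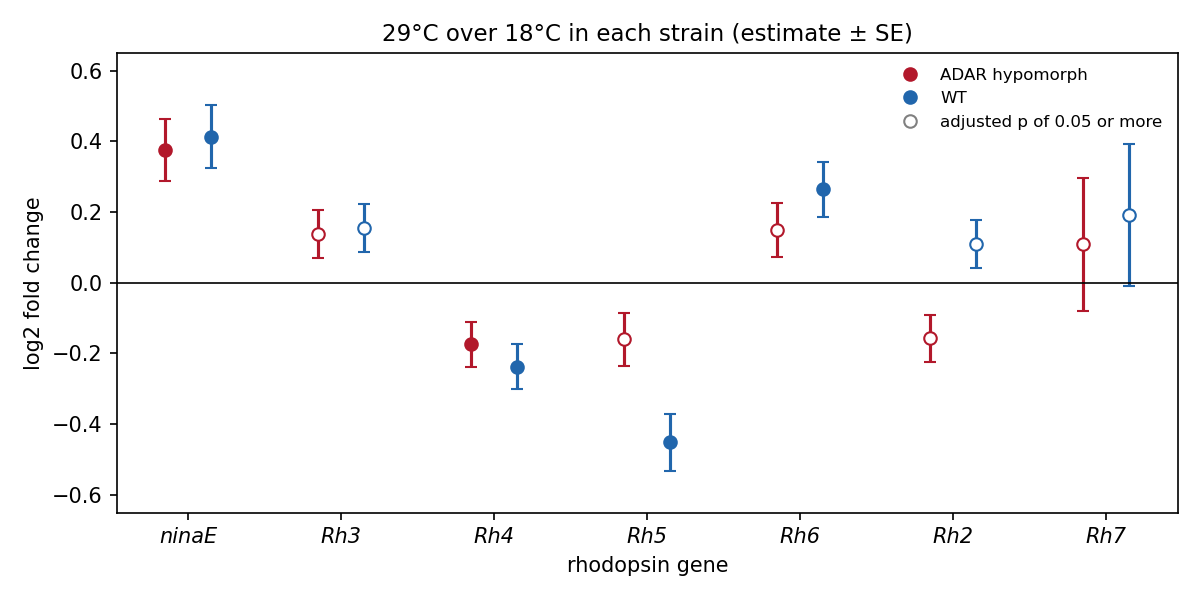
Log2 fold change of each rhodopsin gene at 29°C over 18°C, in ADAR hypomorph and in WT heads (estimate and SE from edgeR's model), with open points where the adjusted p was 0.05 or more. ninaE lies above 0 and Rh4 below 0 in both strains, Rh5 is lowest in WT at -0.45, and no value goes beyond 0.45 in size.

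The difference of the responses, hypomorph minus WT, was tested as an interaction in the same model. No rhodopsin gene was called at an adjusted p under 0.05 (edgeR), where 2.32% of all tested genes were. Before adjustment, 2 were under 0.05 in edgeR. These were Rh2, with a difference of -0.27 ± 0.09 on the log2 scale (adjusted p = 0.187, edgeR), and Rh5, with 0.29 ± 0.11 (adjusted p = 0.228, edgeR). DESeq2 called none, and scaling by total counts called Rh2 (adjusted p = 0.0452). The larger fall of Rh5 in WT than in the hypomorph is therefore not shown to differ between the strains.

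Within the rhodopsins, the ratio of Rh3 to Rh4 was higher at 29°C than at 18°C in both strains, by 1.25-fold in the hypomorph and 1.31-fold in WT, and the ratio of Rh5 to Rh6 was lower, by 1.24-fold in the hypomorph and 1.64-fold in WT (exact permutation p = 0.1 for each, the smallest possible). None of these 4 comparisons had overlapping groups. The R7 sum relative to ninaE was 1.32-fold lower at 29°C in the hypomorph and 1.33-fold lower in WT, without overlap. The R8 sum was 1.21-fold lower in the hypomorph, and in WT it was 1.17-fold lower with overlapping groups (exact permutation p = 0.4).

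The other genes of the light response were then examined. Of all tested genes, 8.81% were higher and 10.2% lower in the hypomorph at 29°C, and 11.6% and 14.6% at 18°C. The counts of the lists below stand beside these shares. Of 23 phototransduction genes, 21 were higher in the hypomorph and none lower at 29°C, and likewise at 18°C, with a median log2 fold change of 0.90 at each temperature, against -0.00 at 29°C and 0.01 at 18°C over all genes tested. The 3 with the smallest p at 18°C were ninaC, the myosin III of the rhabdomere, Gbeta76C, the eye-specific G protein beta subunit, and Arr1, an arrestin that binds activated rhodopsin. ninaC averaged 1034 ± 24.9 CPM in the hypomorph and 497 ± 15.4 CPM in WT at 29°C, and 1034 ± 45.2 and 451 ± 9.23 CPM at 18°C. Arr1 averaged 4467 ± 80.5 CPM in the hypomorph and 2047 ± 184 CPM in WT at 29°C, and 5223 ± 50.9 and 1836 ± 218 CPM at 18°C. The log2 fold changes of Gbeta76C were 1.09 ± 0.06 and 1.16 ± 0.06 (adjusted p of 2.25e-09 and 1.37e-09). The largest log2 fold change in the list was 1.37 at 29°C and 1.51 at 18°C, below those of ninaE. inaE, a diacylglycerol lipase, and Gprk1, a G protein-coupled receptor kinase, were the 2 that did not pass, with log2 fold changes of -0.08 and -0.04 at 29°C and of -0.02 and 0.27 at 18°C.

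Of 11 tested genes for opsin maturation and chromophore supply, 7 were higher in the hypomorph at 29°C, and 8 were higher and 1 lower at 18°C (medians of 0.60 and 0.92). Pdh, a retinol dehydrogenase of the retinal pigment cells, averaged 1927 ± 57.1 CPM in the hypomorph and 899 ± 24.6 CPM in WT at 29°C, and 1794 ± 48.8 and 947 ± 37.7 CPM at 18°C (adjusted p of 4.52e-10 and 3.49e-09). Xport, a chaperone of TRP and Rh1, had log2 fold changes of 1.21 ± 0.09 and 1.49 ± 0.10 (adjusted p of 1.33e-07 and 1.70e-08). CG42508 had nearly the same reads as Xport in every group, so the 2 are uncertain as separate measurements. The 1 gene that was lower was ninaD, a scavenger receptor for carotenoid uptake. It averaged 4.13 ± 0.655 CPM in the hypomorph and 15.6 ± 7.02 CPM in WT at 18°C (log2 fold change of -1.94 ± 0.33, adjusted p = 0.000373, edgeR). At 29°C ninaD was not called, and it was called in only 7 of 20 other settings. This gene was outside the rule for named genes and was picked after its value was seen.

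Of 23 tested transcription factors and signalling genes that set photoreceptor fate or opsin choice, 6 were higher in the hypomorph at 29°C and 7 at 18°C, and none was lower (medians of 0.13 and 0.36). These counts varied from 3 to 7 at 29°C and from 3 to 10 at 18°C over the 20 other settings. Over all tested genes, 8.81% were higher and 10.2% lower at 29°C, and 11.6% and 14.6% at 18°C. gl (glass), a zinc finger factor of photoreceptors, averaged 14.9 ± 3.85 CPM in the hypomorph and 5.56 ± 1.03 CPM in WT at 29°C, and 15.1 ± 1.12 and 5.18 ± 0.875 CPM at 18°C (log2 fold changes of 1.41 ± 0.20 and 1.53 ± 0.21, with adjusted p of 9.46e-05 and 5.70e-05). The eye specification genes toy and so had log2 fold changes of 0.43 ± 0.09 and 0.79 ± 0.18 at 29°C and of 0.56 ± 0.09 and 0.82 ± 0.19 at 18°C (adjusted p between 0.000362 and 0.00510). The call of so at 18°C was lost in the 8 numbered libraries (adjusted p = 0.0679).

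3 regulators of the choice between pale and yellow opsins were picked after their values were seen. ss (spineless), which directs R7 cells to Rh4, averaged 1.00 ± 0.481 CPM in the hypomorph and 0.660 ± 0.300 CPM in WT at 29°C, and 1.74 ± 0.549 and 0.572 ± 0.146 CPM at 18°C. It was called at 18°C (adjusted p = 0.0483) but in only 3 of 18 other settings, and the call was lost without any of 10 single libraries (adjusted p of up to 0.144). melt (melted), which directs R8 cells to Rh5, averaged 3.04 ± 0.243 CPM in the hypomorph and 1.05 ± 0.165 CPM in WT at 29°C (log2 fold change of 1.53 ± 0.37, adjusted p = 0.00731), and 3.31 ± 0.367 and 2.29 ± 1.19 CPM at 18°C (adjusted p = 0.273). The call at 29°C was lost in the 8 numbered libraries, with an adjusted p of 0.106. wts (warts), which opposes melt and directs R8 cells to Rh6, averaged 24.8 ± 1.69 CPM in the hypomorph and 19.8 ± 0.750 CPM in WT at 29°C (adjusted p = 0.0419, called in 10 of 20 other settings and lost without any of 6 single libraries), and 19.9 ± 1.44 and 18.9 ± 1.71 CPM at 18°C (adjusted p = 0.617). oc, hpo and yki of the same list were also picked after their values were seen. oc averaged 5.15 ± 0.266 CPM in the hypomorph and 2.11 ± 0.341 CPM in WT at 29°C. Its log2 fold change there was 1.27 ± 0.25 (adjusted p = 0.00157, edgeR), called in 19 of 20 other settings. At 18°C oc was not called (adjusted p = 0.327, edgeR). hpo and yki had log2 fold changes of -0.05 and -0.23 at 29°C and of -0.01 and 0.06 at 18°C, and neither was called.

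**Figure D5:**
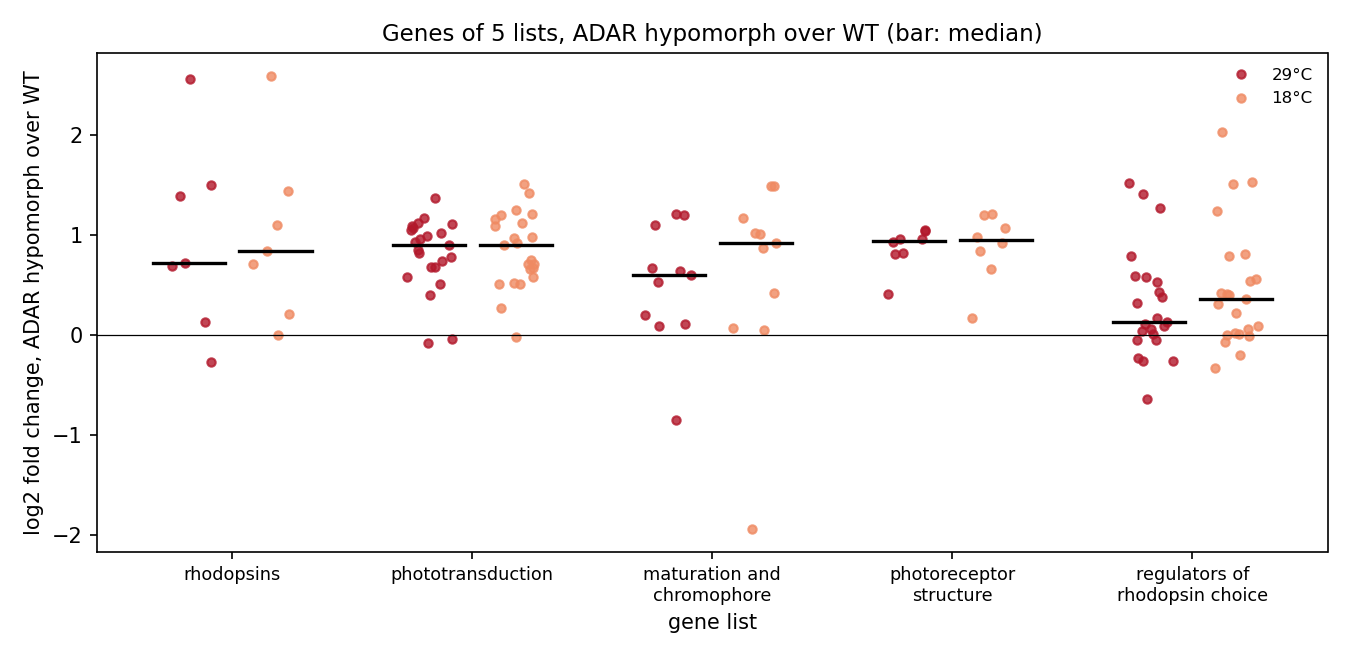
Log2 fold change, ADAR hypomorph over WT, of each tested gene in 5 lists at 29°C and 18°C (points, with the median as a bar). The medians of the phototransduction list are 0.90 at both temperatures, and ninaE is the highest point of these 5 lists at 2.56 and 2.60. The regulators spread around medians of 0.13 and 0.36.

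In RNA from whole heads, more cells of a type and more RNA per cell cannot be told apart. The genes of photoreceptor structure, which share 4 of 8 members with the phototransduction list, were higher in the hypomorph in 7 of 8 cases at each temperature (medians of 0.94 at 29°C and 0.95 at 18°C), and their summed level was 4080 to 4263 CPM in the hypomorph and 2023 to 2238 CPM in WT at 29°C, and 3089.6 to 3452 and 1491 to 1512 CPM at 18°C. None of the 8 was at 0 in any group. Of 6 tested genes of the photoreceptor synapse, 6 were higher at 29°C and 3 at 18°C, and none was lower. This list is not limited to photoreceptor genes, as it also holds genes of partner cells and glia at the synapse. Over the 20 other settings, 3 to 6 were higher at 29°C and 2 to 4 at 18°C. Relative to chp (chaoptin), an adhesion protein of photoreceptor membranes picked after the data were seen, ninaE was 3.05-fold higher in the hypomorph at 29°C and 2.89-fold higher at 18°C, so that its difference was larger than that of chp in the same libraries. Rh4 was 1.45-fold and 1.29-fold higher relative to chp, and Rh3 was 1.21-fold and 1.29-fold lower. Rh5 was 1.34-fold higher at 29°C and 1.01-fold at 18°C, where the groups overlapped. Rh2 was 2.34-fold and 2.10-fold lower, Rh6 1.18-fold and 1.17-fold lower, and Rh7 1.79-fold and 1.898-fold lower. Each of these 14 comparisons had an exact permutation p of 0.1, the smallest possible (adjusted 0.117), except those at 18°C of Rh5 (0.9) and Rh6 (0.2), whose groups overlapped. chp itself had log2 fold changes of 0.96 at 29°C and 1.07 at 18°C. The ratios of Rh2 and Rh7, opsins placed outside the compound eye, carry this rise of chp. Over the 8 structure genes, log2 fold changes ran from 0.41 to 1.06 at 29°C and from 0.17 to 1.21 at 18°C. The direction for Rh3 and Rh6 at both temperatures, and for Rh5 and Rh7 at 18°C, therefore depends on the reference gene.

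Some marker genes of other cell types of the head also differed between the strains, and not all in 1 direction. For comparison, 8.81% of all tested genes were higher and 10.2% lower at 29°C, and 11.6% and 14.6% at 18°C. The corneal lens gene retinin averaged 12113 ± 793 CPM in the hypomorph and 3717 ± 114 CPM in WT at 29°C, and 9444 ± 556 and 3179 ± 222 CPM at 18°C, while the whole list of 4 lens and cone cell genes had 2 higher and none lower at 29°C and 1 higher and 1 lower at 18°C. The summed level of 7 fat body genes was 46562 to 53725 CPM in the hypomorph and 82083 to 85939.5 CPM in WT at 29°C, and 22358 to 33912 and 100354 to 108958 CPM at 18°C. Of these, 4 were lower and 1 higher in the hypomorph at 29°C and 6 were lower at 18°C, with none at 0 in any group. The yolk protein genes Yp1, Yp2 and Yp3, which are expressed in females, made up 96.1% of this sum in the hypomorph and 96.8% in WT at 29°C, and 93.6% and 95.9% at 18°C. Of 6 glial genes, 3 were higher at 29°C and 4 at 18°C (medians of 0.21 and 0.26), but from 1 to 3 and from 0 to 5 over the 20 other settings, with summed levels of 628 to 656 CPM in the hypomorph and 525 to 561 CPM in WT at 29°C, and 907 to 945 and 719 to 788 CPM at 18°C. Of 10 neuronal genes, 4 were higher and 1 lower at 29°C, and 5 were higher and 2 lower at 18°C. Over the other settings, 2 to 5 were higher at 29°C and 3 to 6 at 18°C. Their summed levels were 1114 to 1132 CPM in the hypomorph and 941 to 1006 CPM in WT at 29°C. At 18°C they were 999 to 1112 CPM in the hypomorph and 883 to 1026 CPM in WT. Some of these 10 are general neuronal genes, which photoreceptors also express, so the list does not measure other neurons apart from photoreceptors. Of 6 muscle genes, 4 were higher at 29°C and 3 lower at 18°C, but from 0 to 6 and from 0 to 3 over the other settings, with summed levels of 4616 to 5326 CPM in the hypomorph and 3878 to 4288 CPM in WT at 29°C, and 5406 to 5859 and 6105 to 7231 CPM at 18°C. Of 5 tested eye pigment genes, 2 were higher and 1 lower at 29°C, and 3 were higher and 2 lower at 18°C. Over the 20 other settings, 1 to 2 were higher and 0 to 1 lower at 29°C, and 1 to 3 and 1 to 2 at 18°C. In this list w was higher at both temperatures and ry lower (log2 fold changes of -0.44 at 29°C and -0.56 at 18°C for ry). The part of these differences, and of w, in the rhodopsin levels was not tested.

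Finally, for each rhodopsin the genes with the most similar pattern were found, by Pearson's r of log2(CPM + 1) over the 12 libraries among the tested genes. The libraries fall into 4 groups, so r mostly reflects the differences between them, and it is given as a description. ninaE was most like rdgC (0.991), a rhodopsin phosphatase, Ipp (0.991) and retinin (0.991). Rh4 was most like CG17778 (0.992), Fbxl4 (0.991) and Ggamma30A (0.990), the eye G protein gamma subunit. Rh6 was most like inaD (0.985), the scaffold protein of the phototransduction complex, lqf (0.984) and B52 (0.980). Rh3 was most like PGRP-SC1b (0.978), ninaE (0.976) and retinin (0.975), and Rh5 was most like Rh4 (0.983), CG2767 (0.980) and CG2233 (0.974).

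The remaining 2 members did not share these patterns. The closest to Rh2 were Nup75 (0.914), CG13318 (0.886) and CG42662 (0.874), and Rh2 correlated with each of the opsins of the compound eye at -0.53 to -0.65. The closest to Rh7 were CCKLR-17D3 (0.859), CG4300 (0.822) and CG5808 (0.819). Among themselves, ninaE, Rh3, Rh4, Rh5 and Rh6 correlated at 0.837 to 0.983, with the lowest value between Rh5 and Rh6.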

How the data were processed

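RNA of fly heads was measured in 12 libraries, 3 in each of 4 groups, by 3' RNA-seq. The authors aligned the reads to dm3 with TopHat and used ESAT to obtain a raw count for every gene, the unit of the deposited table. Versions of these tools are not given in the sources used here. The column of each sample was found by its strain, temperature and replicate number, and 1 column per group carries no number and was used as a further library of its group. 4 columns belong to no sample here and were not used.

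The counts were fitted in edgeR 4.0.16 (R 4.3.3, limma 3.58.1) in 1 quasi-likelihood model of the 12 libraries with TMM scaling. Low genes were removed by filterByExpr (minimum count 10). Strain effects, temperature effects and their difference were tested with Benjamini-Hochberg adjustment over 9553 genes at a threshold of 0.05. The SE is the log2 fold change divided by the root of its F statistic. The biological coefficient of variation was 12.9%. The model was tested on simulated data, of which no outcome is given here.

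Ratios used CPM + 0.5. Gene lengths and the genes that overlap Rh4, with their strands, came from BDGP6, a later build, so no coordinates are given. Older symbols were looked up in a RefSeq gene list. No sequence was printed. The members and lists were chosen with earlier results of these data known. The named genes are the 7 members, the 3 genes most alike to each, and the 3 genes with the smallest p at 18°C in the lists of phototransduction, maturation and regulators. Adar, w, ry, the genes that overlap Rh4, chp, inaE, Gprk1, ninaD, ss, melt, wts, oc, hpo, yki, the yolk protein genes and those with differing responses in the closing section fall outside this rule and were chosen after their values were seen. cn was not analysed here, and 2 symbols that stand for other genes were left out of the lists. Libraries of a group differed by a chi-square per degree of freedom of 3.20 to 9.00, so none was a copy. The alternatives were DESeq2 1.42.0, its size factors or total counts within edgeR, 2 other filters, only the groups compared, the replicate number as a block, the study's criterion and leaving out each library. Ratios to chp were added after the data were seen. Tables were made with pandas 2.3.3 and plots with matplotlib 3.10.9 (Python 3.11.15), and permutation tests with numpy 2.4.6.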

Additional observations from a re-analysis of the deposited data

Results flagged for a closer look

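In the interaction test of edgeR, 2.32% of all tested genes were called at an adjusted p under 0.05. The temperature responses of 12 genes over all lists differed between the strains in this test, and no rhodopsin was among them. They were 2 of the maturation list, 1 of the corneal lens list, 6 of the fat body list and 3 of the muscle list. Cpr72Ec, a cuticle protein gene of the corneal lens list, had a response 3.59 higher on the log2 scale in the hypomorph than in WT. It averaged 423 ± 70.8 CPM at 29°C and 35.8 ± 8.59 CPM at 18°C in the hypomorph, and 57.8 ± 4.05 CPM at 29°C and 59.4 ± 4.27 CPM at 18°C in WT (SD, n = 3 each), and the difference was called in 19 of 19 other settings. ninaA, the chaperone that carries Rh1 out of the endoplasmic reticulum, had a difference of -0.49, with 182 ± 3.62 CPM at 29°C and 223 ± 10.6 CPM at 18°C in the hypomorph, and 125 ± 5.24 CPM at 29°C and 109.6 ± 16.1 CPM at 18°C in WT. CG17352 (culd) had a difference of -0.50, with 271 ± 7.06 CPM at 29°C and 279.7 ± 19.8 CPM at 18°C in the hypomorph, and 169.7 ± 18.6 CPM at 29°C and 124 ± 9.22 CPM at 18°C in WT. The difference was called in 6 of 19 other settings for ninaA and in 8 of 19 for CG17352. In the fat body list, the response was higher in the hypomorph than in WT by 5.04 on the log2 scale for Lsp2, a storage protein gene, 6.50 for Fbp1, 1.07 for Yp1, 1.26 for Yp2, 1.07 for Yp3 and 0.42 for Rfabg, an apolipoprotein gene. Fbp1 averaged only 3.25 ± 1.97 CPM at 29°C and 1.17 ± 0.850 CPM at 18°C in the hypomorph, and 0.836 ± 0.645 CPM at 29°C and 24.5 ± 12.4 CPM at 18°C in WT. The differences of Lsp2 and the Yp genes were called in 19 of 19 other settings, that of Fbp1 in 18 of 18 and that of Rfabg in 17 of 19. In the muscle list, the difference was 0.55 for up (troponin T), 0.56 for wupA (troponin I) and 0.48 for Mlc2 (a myosin light chain), called in 17, 17 and 14 of 19 other settings.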

How the results depend on the processing

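The strain calls of ninaE, Rh3, Rh4, Rh5 and Rh6 kept their direction and their side of the threshold at both temperatures under each of the 20 alternatives judged by adjusted p. By the study's criterion, a log2 fold change beyond 1 and an unadjusted p under 0.05, Rh3 and Rh6 were not called. By it, 3 rhodopsin genes were called between the strains at 29°C and 3 at 18°C, and 0 between the temperatures in either strain. Between the temperatures in the hypomorph, 1 gene in place of 2 was called with DESeq2 size factors, with all genes that had at least 1 count, with only the groups compared, and in the 8 numbered libraries with or without the replicate block, 1 to 2 when single libraries were left out, and 3 with total counts. In WT, 3 genes in place of 4 were called with total counts, and 3 to 5 when single libraries were left out (3 without WT replicate 3 at 18°C or at 29°C, 5 without the unnumbered hypomorph library at 18°C). For the difference of the responses, 1 gene was called with total counts, in place of 0. Total counts moved the median log2 fold change of all genes to 0.20 for the strains at 18°C, -0.20 for the temperatures in the hypomorph and -0.15 for the difference, and the responses of Rh3 (-0.046), Rh6 (-0.042) and Rh7 (-0.070) in the hypomorph and the difference of Rh4 (-0.075) then changed sign. The near-zero strain difference of Rh2 at 18°C was -0.022 with DESeq2, -0.021 with its size factors, -0.0011 with all genes that had at least 1 count, -0.0016 with at least 10 counts in every library, -0.0065 with only the groups compared, -0.033 with the replicate block and -0.034 without it in the same libraries, and -0.034 to 0.032 without single libraries. With total counts it was 0.19 (adjusted p = 0.0493, edgeR). In the 8 numbered libraries, the difference of ninaE was 0.012 with the replicate block and 0.0087 without, and the response of Rh7 in the hypomorph was -0.047 with it and -0.046 without. Without single libraries, the difference was -0.14 to 0.071 for ninaE, -0.085 to 0.037 for Rh3 and -0.22 to 0.080 for Rh7, and the response of Rh7 in the hypomorph was -0.034 to 0.25. None of these reversed values passed the test, and the cause was not tested. Same-numbered libraries of different groups correlated at -0.27 to 0.28. Whether they share more than a number is not given in the sources used here. With the block, 77 genes in place of 222 were called for the difference and 1598 in place of 2500 for the strains at 18°C. Leaving out 4 libraries in that setting also lowers the precision. Depth limits Rh7 most among the 7 genes, at 28 to 69 reads per library.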
